A study of Homo sapiens with 4 samples.

Results

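The nuclear genes for the protein subunits of the mitochondrial respiratory chain and ATP synthase were followed in Daoy cells, an established human medulloblastoma line, after stable knockdown of PELP1. Members were taken by symbol: every gene row whose name follows the NDUFA, NDUFB, NDUFC, NDUFS, NDUFV, SDH, UQCR, COX4 to COX8 or ATP5 pattern, with the pseudogene ATP5EP2 left out. The rule found 86 of 23228 gene rows. It picks rows by name alone, but the set was proposed with earlier results of these data known. The older symbols of the deposited files are kept throughout. Sorted by complex, 37 members belong to complex I, 4 to complex II, 9 to complex III, 16 to complex IV and 16 to complex V. The other 4 match by name but encode no core subunit: COX4NB is an older name of EMC8, a protein of the endoplasmic reticulum, ATP5S and ATP5SL are older names of DMAC2L and DMAC2, and COX7A2L acts in joining respiratory complexes into supercomplexes. They were counted apart from the complexes.

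Oxidative phosphorylation makes most of the ATP of respiring cells. Complex I (NADH dehydrogenase) and complex II (succinate dehydrogenase) pass electrons to ubiquinone, complex III (the cytochrome bc1 complex) passes them to cytochrome c, and complex IV (cytochrome c oxidase) passes them to oxygen. Complexes I, III and IV pump protons across the inner mitochondrial membrane, and complex V (ATP synthase) uses their return to make ATP. All complexes other than complex II also contain subunits encoded in mitochondrial DNA, which were not analysed here. The nuclear subunit genes are scattered over the genome, and the transcription factors NRF1, GABP (an ETS family factor), YY1 and CREB with coactivators of the PGC-1 family are known to bind or drive many of them.

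RNA was sequenced in 4 libraries, 2 from cells carrying a control shRNA vector and 2 from cells carrying a PELP1 shRNA vector. PELP1 is a scaffold protein that works as a coregulator of nuclear receptors. Both groups were grown in serum-supplemented DMEM and both had been transduced with lentiviral particles, and the labels name no shRNA sequence, clone number or time since transduction. They describe the runs as duplicates and do not say that the libraries came from separate cultures, so the p-values speak of the variation from library to library, and this variation may be technical.

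Reads counted in genes came to 24052542 and 26629578 (control shRNA) and to 29221640 and 26760085 (PELP1 shRNA). Members together took 0.742% and 0.745% of the counts of the control libraries and 0.784% and 0.786% of those of the PELP1 shRNA libraries. PELP1 itself stood at 168 and 185 CPM (reads relative to the TMM-scaled library size) in the control libraries and at 55.6 and 49.7 CPM in the PELP1 shRNA libraries, a log2 fold change of -1.75 ± 0.05 (SE). Of 10 cerebellar and hedgehog-type markers, 6 were above 1 CPM in both groups, while ATOH1, BARHL1 and NEUROD1 were at 0 to 0.233 CPM and GLI1 at 0.471 to 1.33 CPM. The progenitor markers NES, VIM and SOX2 were all above 1 CPM. Summed levels of the 10 cerebellar and hedgehog-type markers were 267 and 269.9 CPM with the control shRNA and 237 and 243 CPM with the PELP1 shRNA. Markers of blood, endothelial and epithelial cells other than CD68 summed to 1.28 to 3.15 CPM in every library, and CD68 was at 57.5 to 58.6 CPM. Of the 7 tested cerebellar and hedgehog-type markers, GLI2 and PTCH1 fell by 0.71 and 0.51 on the log2 scale, GLI1, OTX2 and ZIC2 rose by 0.80, 0.48 and 0.26, and SFRP1 and ZIC1 were not called (edgeR FDR of the 5 calls from 2.16e-13 to 0.0332). VIM and SOX2 fell by 0.51 and 0.33 (FDR = 1.48e-21 and 0.0176), and NES was not called. Among the markers of other cells, PECAM1 and EPCAM rose by 2.31 and 1.65 and CDH5 fell by 1.39 (FDR = 5.26e-08, 0.00222 and 0.00701), each from levels of under 1 CPM with the control shRNA. The part of these marker changes in the results on the subunit genes was not tested.

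Knockdown of PELP1 went with small shifts of single subunit genes in both directions and with no common direction. Of the 86 members, 80 had enough counts to be tested. A gene was called higher or lower when its false discovery rate (FDR, the Benjamini-Hochberg adjusted p of edgeR's quasi-likelihood test over all 14972 tested genes) was below 0.05. By that rule 21 members were higher with the PELP1 shRNA, 28 were lower and 31 were not called. Among all tested genes, 28.6% were called higher and 29.5% lower, and the members' shares of 26.3% and 35% lie near that background. The median log2 fold change was -0.0045 over the members and 0.0022 over all tested genes, and 40 members lay on each side of 0. In bulk RNA such as this, fewer cells of a type and less RNA per cell cannot be told apart.

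The shifts were narrow. Changes of the tested members ran from -0.59 (ATP5E) to 0.71 (COX7C) on the log2 scale, and 45 of 80 (56.3%) lay within 0.2 of 0, against 41.2% of all tested genes. The median size of the change regardless of sign was 0.154 for the members and 0.260 for all tested genes. Only COX7C, COX7B2 and ATP5E were called and changed by more than 1.5-fold, which is 3.75% of the tested members. The same applied to 18.6% of all tested genes. Among genes with at least 5 CPM in 2 libraries, where counting error is smaller, it applied to 2 of 79 members (2.53%) and to 13.9% of 11490 genes. The median size of the change in these genes was 0.154 for the members and 0.219 for all. The background genes were not otherwise matched to the members in level. Both PELP1 shRNA libraries lay above both control libraries for 29 members and below them for 34, with 17 overlapping. Over all tested genes the shares without overlap were 39% above and 38.7% below.

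**Figure D1:**
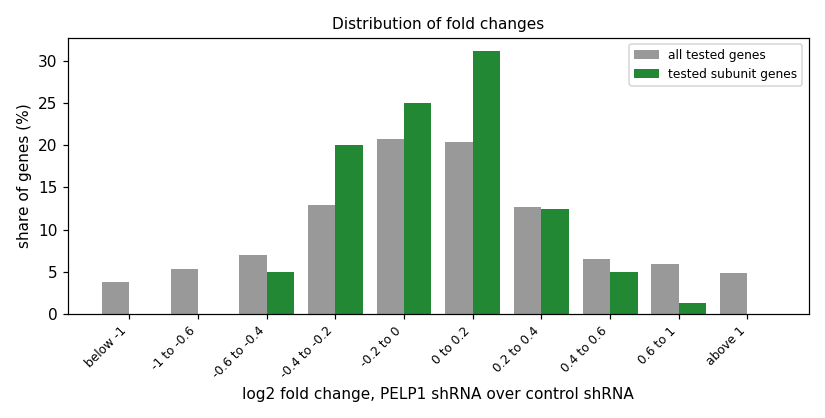
Share of genes (y axis, %) in each range of log2 fold change of PELP1 shRNA over control shRNA (x axis), for all 14972 tested genes (grey) and the 80 tested subunit genes (green). No member falls below -0.6 or above 1, ranges in which 3.8%, 5.31% and 4.84% of all tested genes lie, while 56.3% of members lie within 0.2 of 0.

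With TMM scaling, the summed levels of the members in each complex stayed between 94.3% and 103% of their control means. The TMM factors were 0.972 and 0.967 for the control libraries and 1.033 and 1.030 for the PELP1 shRNA libraries. Without them the members' share of the counts was higher in both PELP1 shRNA libraries. The ratios, and which of them lies furthest from 100%, thus depend on the scaling. Complex I subunit genes summed to 2456 and 2503 CPM in the control libraries and 2432 and 2439 CPM in the PELP1 shRNA libraries, so the PELP1 shRNA mean was 98.2% of the control mean. For complex II the sums were 322 and 320.4 CPM against 323 and 318 CPM, with overlapping groups and a ratio of 99.7%. Complex III summed to 817 and 811 CPM against 758 and 777 CPM, a ratio of 94.3%, the furthest from 100% of the 5 complexes. Complex IV summed to 995 and 1016 CPM against 1031 and 1049 CPM (103%), and complex V to 2814 and 2822 CPM against 2828 and 2828 CPM (100.3%). These sums weight each gene by its read count, so long and abundant transcripts count most. They hold only genes found by the symbol rule. Complex III is thus summed without the cytochrome c1 gene CYC1 (114 and 127 CPM against 89.6 and 84.9 CPM) and with UQCRHL, a copy of UQCRH. NDUFA4 (69.7 and 71.2 CPM against 53.8 and 52.5 CPM) is summed in complex I by its name and not in complex IV.

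**Figure D2:**
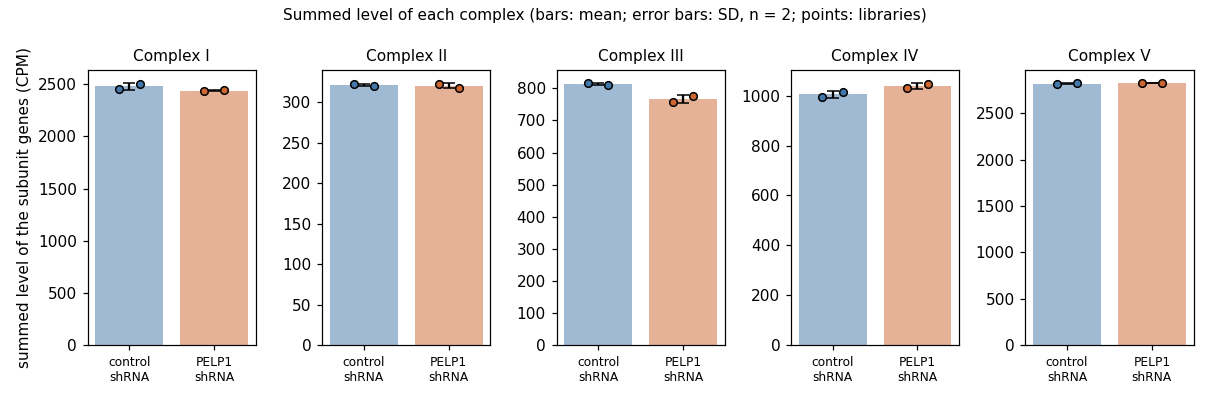
Summed TMM-scaled CPM of the members in complexes I to V (y axis, 1 panel per complex, each starting at 0) in the control shRNA and PELP1 shRNA groups. Bars are means, error bars SD over 2 libraries, points single libraries. Within every panel the bars differ little, with complex III at 94.3% and complex IV at 103% of the control mean.

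Within complexes the calls were mixed, beside 28.6% higher and 29.5% lower among all tested genes. In complex I, 8 of 37 members were higher and 13 lower, with a median log2 fold change of 0.0043. Complex II had 2 higher and 1 lower of 4, complex III had 3 higher and 3 lower of 9, complex IV had 4 higher and 3 lower of 11 tested, and complex V had 4 higher and 6 lower of 15 tested. The medians of complexes II to V were 0.10, -0.06, 0.03 and 0.04. Of the 4 genes outside the complexes none was higher, also at an unadjusted p under 0.05 and with DESeq2 (0 in each), and COX4NB and COX7A2L were lower (-0.19 and -0.13), although both calls were lost without PELP1 shRNA replicate 1 (FDR = 0.0809 and 0.0801). COX7A2L was also not called without PELP1 shRNA replicate 2 or control shRNA replicate 1 (FDR = 0.0679 in both). NDUFA4 carries a complex I name but is now placed in complex IV. Moving it gave 8 higher and 12 lower of 36 in complex I and 4 of each among the 12 tested in complex IV.

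How many members count as higher depends on the scaling. With library size alone in place of TMM factors, the median of all tested genes moved to 0.09 and that of the members to 0.09, and 34 members were higher and 20 lower. Among all genes the share of calls that were higher moved from 49.1% to 63.2%. The counts were refitted in 11 other ways: with library size alone or upper-quartile factors, with DESeq2 or limma-voom, with no filter or a stricter filter on low counts, with a replicate block, and with each library left out. Of the 49 called members, 29 kept their call in every refit, 13 of them higher and 16 lower. Leaving out 1 library gave 15 to 18 members higher and 20 to 27 lower, and DESeq2 called 16 higher and 21 lower. In complex I, 5 members were higher without PELP1 shRNA replicate 1 and 5 without PELP1 shRNA replicate 2, against 8 with all libraries. In complex V, 2 were higher without PELP1 shRNA replicate 2, against 4.

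**Figure D3:**
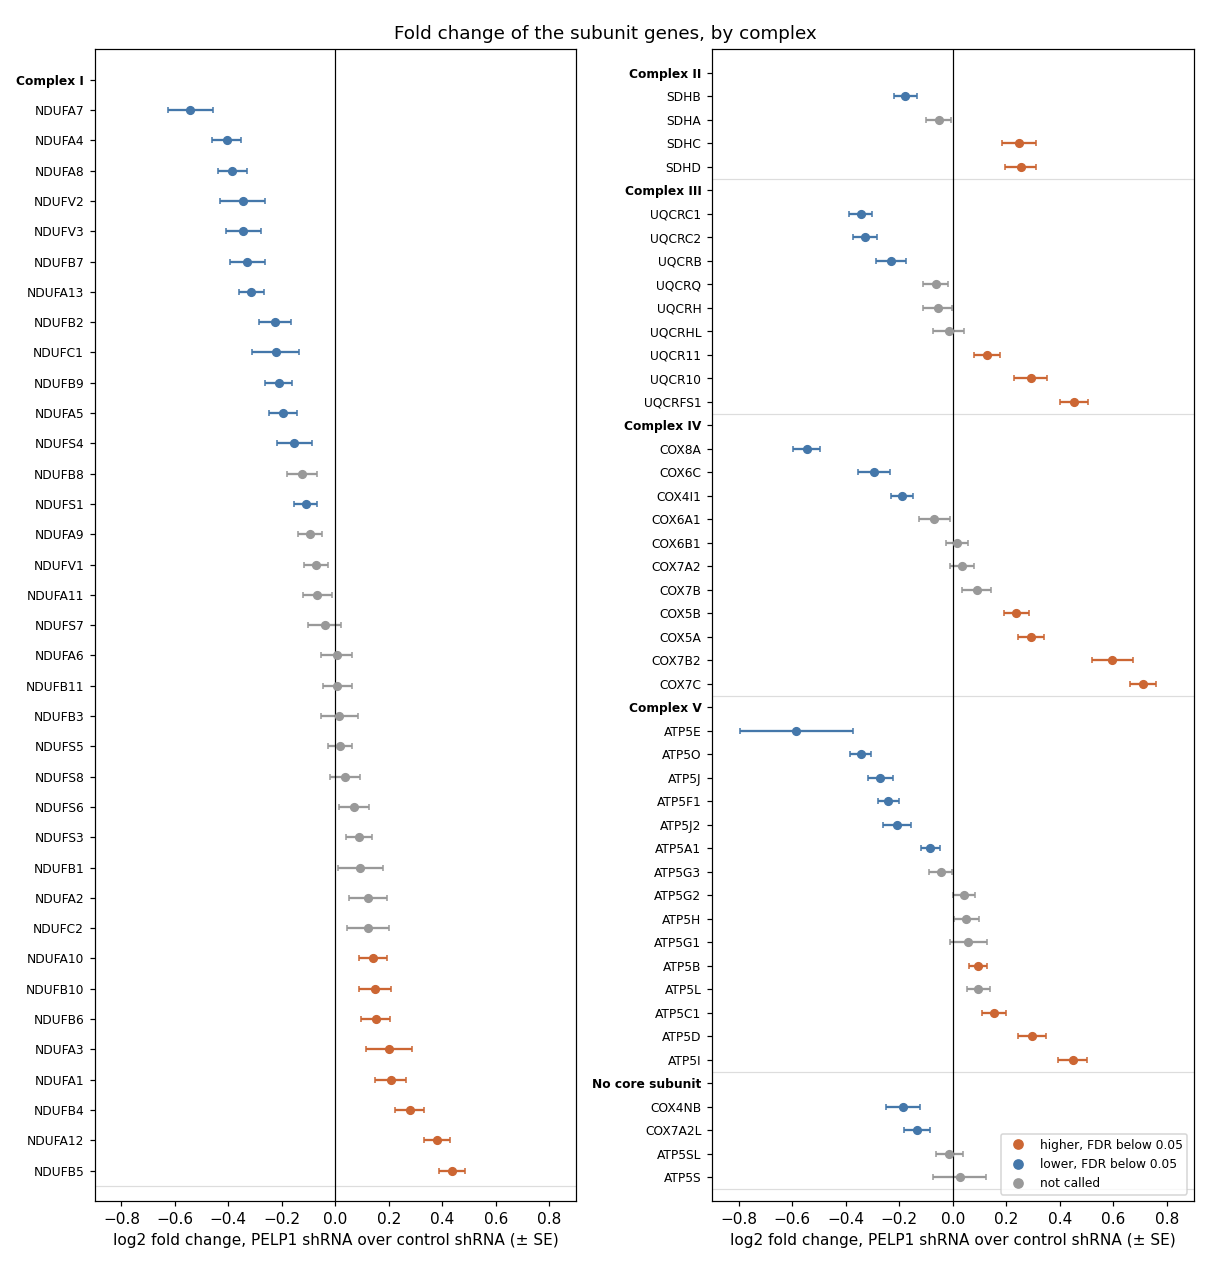
Log2 fold change of PELP1 shRNA over control shRNA (x axis) for 79 of the 80 tested members (y axis), grouped by complex; points are edgeR estimates and bars their SE, coloured by the call. Higher and lower members stand side by side in every complex, and the range is widest in complex IV, from -0.55 for COX8A to 0.71 for COX7C.

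In complex IV, the terminal oxidase, the small nuclear subunits around the catalytic core carried the members' widest range of change. COX7C, a short membrane subunit, stood at 71.5 and 78.1 CPM with the control shRNA and at 121 and 124 CPM with the PELP1 shRNA. It rose by 0.71 ± 0.05 (SE) on the log2 scale (edgeR FDR = 2.90e-20), more than any other member. COX8A, the ubiquitous form of another short membrane subunit, was at 94.2 and 102 CPM and then at 67.8 and 66.8 CPM, a log2 fold change of -0.55 ± 0.05 (FDR = 1.02e-14). For both genes the groups lay far apart compared with the gap between libraries of 1 group. On hg19, COX7C lies at chr5:85913745-85916779 on the plus strand and COX8A at chr11:63742092-63744015 on the plus strand. Their longest annotated coding sequences measure 189 and 207 bases. COX7C shares 63 exonic bases with the small RNA MIR3607 on its own strand, and COX8A shares 175 with ENSG00000256100, so part of their reads could belong to either gene.

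COX5A, which sits on the matrix side of the oxidase, was at 82.9 and 84.5 CPM in the control libraries and 98.8 and 106 CPM in the PELP1 shRNA libraries (0.29 ± 0.05; FDR = 4.82e-07). COX5B, its zinc-binding neighbour, changed by 0.24 ± 0.05. COX4I1, the largest nuclear-encoded subunit of the oxidase, fell from 198 and 196 CPM to 172 and 173 CPM (-0.19 ± 0.04; FDR = 4.05e-05). COX6C fell too, from 48.4 and 52.0 CPM to 39.8 and 42.2 CPM (-0.29 ± 0.06). Each of these 4 calls held in every refit. COX6A1, COX6B1, COX7A2 and COX7B were not called, at -0.07, 0.02, 0.03 and 0.09.

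Several subunits of complex IV exist in a broadly expressed form and in forms known from muscle, lung, testis or other tissues. In Daoy cells nearly all reads came from the broad form. COX4I2 was read 3 times under the control shRNA and 0 times under the PELP1 shRNA, COX6A2 1 and 1, COX7A1 1 and 0, COX6B2 11 and 9, and COX8C 5 and 3. COX4I1, COX6A1, COX6B1, COX7A2 and COX8A each made up from 99.8% to 100% of the reads of their pair in every library. At this depth 3 counts correspond to 0.0579% to 0.267% of these families, and intervals and floors cover counting error only. ATP5L2, a copy of the ATP synthase subunit g gene, had 0 counts in every library.

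COX7B2 was the exception. It encodes a paralog of COX7B known mainly from testis, and it stood at 20.2 and 20.1 CPM with the control shRNA and 30.5 and 30.4 CPM with the PELP1 shRNA (0.60 ± 0.08; edgeR FDR = 6.77e-10). COX7B itself was at 63.7 and 62.2 CPM and 63.7 and 70.3 CPM, with overlapping groups. The share of COX7B2 in the reads of the pair was 24.1% and 24.4% with the control shRNA, and 32.4% and 30.2% after knockdown, with exact 95% Clopper-Pearson intervals of at most 1.92 percentage points to either side. An exact permutation test of that share gave p = 0.333 (two-sided), the smallest value that 2 libraries against 2 allow. No pseudogene of COX7B2 was found in the annotation.

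NDUFA4 also has paralogs, and this family was looked at after the member's value had been seen. NDUFA4 was at 69.7 and 71.2 CPM in the control libraries and 53.8 and 52.5 CPM in the PELP1 shRNA libraries (-0.41 ± 0.05; FDR = 2.12e-09). C15orf48, whose product is known to take the place of NDUFA4 in complex IV, was at 11.04 and 10.0 CPM and 15.6 and 16.2 CPM (0.60 ± 0.10; FDR = 4.32e-07). Its share in the reads of NDUFA4, C15orf48 and NDUFA4L2 was 13.6% and 12.3% with the control shRNA and 22.4% and 23.4% with the PELP1 shRNA (exact permutation p = 0.333, again the smallest possible). The third gene of the family, NDUFA4L2, known as a hypoxia-induced gene, held 0.317% to 0.733% of the family's reads. Among the 3 genes for the identical c subunit of ATP synthase, ATP5G1 had 8.64% and 8.94% of the reads as group means, ATP5G2 48.2% and 49.4%, and ATP5G3 43.2% and 41.7%. None of those 3 genes was called, also with DESeq2 or at an unadjusted p under 0.05, and their levels were 31.7 and 31.7 against 34.8 and 31.1 CPM for ATP5G1, 173 and 180.4 against 187 and 178 CPM for ATP5G2, and 161 and 156 against 154 and 153 CPM for ATP5G3.

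**Figure D4:**
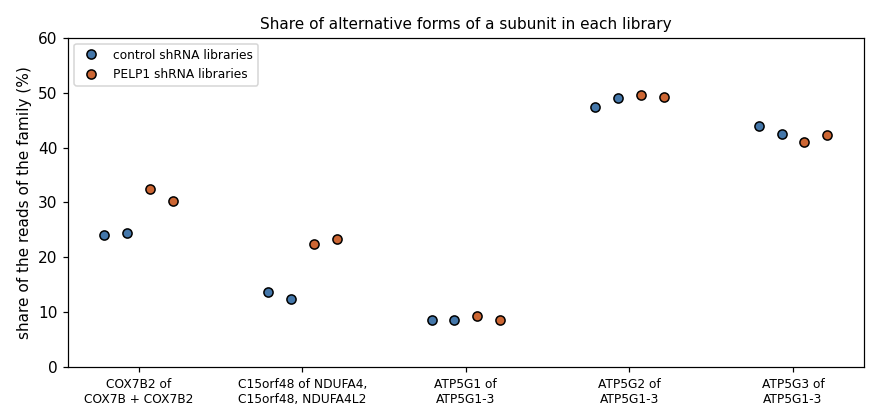
Share of the reads of a gene family taken by 1 of its members (y axis, %) in each control shRNA library (blue) and PELP1 shRNA library (orange). The COX7B2 share lies at 24.1% and 24.4% against 32.4% and 30.2%, and the C15orf48 share at 13.6% and 12.3% against 22.4% and 23.4%, while the ATP5G shares of the groups lie close together.

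In complex I, the core subunits carry the redox centres from NADH to ubiquinone, and of the 6 described here 2 were called lower and none higher. Beside this, 29.5% of all tested genes were called lower and 28.6% higher. NDUFV1, which binds the flavin, was at 128 and 133 CPM with the control shRNA and 126 and 123 CPM with the PELP1 shRNA, and was not called (-0.07 ± 0.04; FDR = 0.151). NDUFV2, its iron-sulphur partner, fell from 22.7 and 24.9 CPM to 17.7 and 19.8 CPM (-0.35 ± 0.08; FDR = 0.000272). NDUFS1, the largest subunit and the holder of further iron-sulphur clusters, was lower by a smaller margin, at 143 and 138 CPM against 132 and 129 CPM (-0.11 ± 0.04; FDR = 0.0241). That call was lost with DESeq2 (adjusted p = 0.0744) and without control shRNA replicate 1, PELP1 shRNA replicate 1 or PELP1 shRNA replicate 2 (FDR = 0.152, 0.0684 and 0.156). NDUFS3, NDUFS7 and NDUFS8, which lie nearer to the ubiquinone site, were not called. NDUFS3 was at 85.0 and 84.6 CPM and 91.0 and 89.4 CPM, NDUFS7 at 46.0 and 50.4 CPM and 49.2 and 44.6 CPM, and NDUFS8 at 55.3 and 57.1 CPM and 57.1 and 58.1 CPM. Their log2 fold changes ran from -0.04 to 0.09. At an unadjusted p under 0.05, and with DESeq2, the number of these 6 that were higher was also 0.

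Accessory subunits, which surround the core and are needed for its assembly and stability, are most of the complex I members and also held most of its calls. Of 13 NDUFA members 4 were higher and 5 lower, and of 11 NDUFB members 4 were higher and 3 lower. The shares over all tested genes were 28.6% higher and 29.5% lower. NDUFB5, a subunit of the membrane arm, rose from 89.4 and 84.9 CPM to 114 and 122 CPM (0.44 ± 0.05; edgeR FDR = 4.56e-12). NDUFA12, which binds late in the assembly of the NADH-oxidising tip, rose from 73.2 and 71.5 CPM to 93.7 and 94.4 CPM (0.38 ± 0.05; FDR = 9.93e-10). NDUFB4 rose from 63.1 and 62.1 CPM to 73.5 and 78.4 CPM (0.28 ± 0.05). In all 3 genes both PELP1 shRNA libraries lay above both control libraries, as in 39% of all tested genes, and the calls held in every refit.

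The lower accessory subunits were led by NDUFA7. It stood at 25.1 and 23.2 CPM in the control libraries and at 16.5 and 16.5 CPM in the PELP1 shRNA libraries (-0.54 ± 0.08; FDR = 8.16e-08). It lies on hg19 at chr19:8373652-8386259 on the minus strand, where 452 exonic bases are shared with the gene model ENSG00000167774 on the same strand and 68 with the ribosomal protein gene RPS28 on the opposite strand. NDUFA8, a subunit of the intermembrane space side, fell from 69.1 and 68.4 CPM to 52.5 and 52.6 CPM (-0.39 ± 0.05; FDR = 9.26e-09). The calls of NDUFA4, NDUFA7 and NDUFA8 held in every refit and also with an assumed biological variation of 10%. NDUFV3, an accessory subunit of the NADH-oxidising tip, changed by -0.34, NDUFB7 by -0.33 and NDUFA13, also known as GRIM-19, by -0.31.

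Smaller calls in complex I were less steady. The lower calls of NDUFS4 and NDUFC1 were lost in 7 and 5 of 11 refits, DESeq2 among them (adjusted p = 0.166 and 0.142). NDUFA1 was higher at 0.21 and NDUFB9 was lower at -0.21, and both calls held in every refit. NDUFA3, NDUFA10, NDUFB6 and NDUFB10 were higher at 0.20, 0.14, 0.15 and 0.15, and each lost its call with DESeq2 (adjusted p = 0.177, 0.0837, 0.0699 and 0.129). They were also not called without control shRNA replicate 1 (NDUFA3 and NDUFB10), control shRNA replicate 2 (NDUFA10, NDUFB6 and NDUFB10), PELP1 shRNA replicate 1 (NDUFA3, NDUFA10 and NDUFB10) or PELP1 shRNA replicate 2 (NDUFA3, NDUFB6 and NDUFB10), with FDRs of up to 0.304, 0.178, 0.110 and 0.176 for the 4 genes in that order. NDUFS4 was called lower (-0.15) although its groups overlap, at 55.0 and 46.8 CPM and 43.4 and 48.1 CPM, and the call was lost without control shRNA replicate 1 (FDR = 0.699) and without PELP1 shRNA replicate 1 (FDR = 0.443). NDUFA5 (-0.19) was not called without PELP1 shRNA replicate 1 (FDR = 0.0736) and NDUFB2 (-0.23) not without control shRNA replicate 2 (FDR = 0.143). NDUFC1 (-0.22) was not called without control shRNA replicate 2 or PELP1 shRNA replicate 1 (FDR = 0.102 and 0.315).

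Complex II links the respiratory chain to the citric acid cycle and is encoded by 4 nuclear genes. Its iron-sulphur subunit gene fell while both membrane anchor genes rose. The flavoprotein SDHA was at 99.6 and 101 CPM with the control shRNA and 97.7 and 96.3 CPM with the PELP1 shRNA, and was not called (FDR = 0.346). SDHB, the iron-sulphur subunit, fell from 129 and 128 CPM to 112 and 114 CPM (-0.18 ± 0.04; edgeR FDR = 0.000444). The membrane anchor SDHC rose from 40.2 and 42.5 CPM to 51.4 and 46.7 CPM (0.25 ± 0.06; FDR = 0.000483), and the other anchor, SDHD, rose from 53.8 and 48.8 CPM to 61.5 and 60.7 CPM (0.25 ± 0.06; FDR = 0.000117). The groups did not overlap for any of the 4 genes, but such separation is common: PELP1 shRNA lay above for 39% and below for 38.7% of all tested genes. SDHC was not called without PELP1 shRNA replicate 1 (FDR = 0.0560), which left 1 member of the complex higher, and SDHB was not called with library size alone (FDR = 0.0837). The annotated copies of SDHA were counted separately as SDHAP1, SDHAP2 and SDHAP3, at mean levels of 1.86 to 3.99 CPM, and none was called or had an unadjusted p under 0.05.

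In complex III the gene of the Rieske protein rose while those of both matrix core proteins fell. UQCRFS1, the Rieske iron-sulphur protein that hands electrons on from ubiquinol, rose from 62.9 and 60.7 CPM to 81.4 and 87.9 CPM (0.45 ± 0.05; edgeR FDR = 2.99e-11). UQCRC1 and UQCRC2, the large core proteins on the matrix side, fell. UQCRC1 was at 174 and 183 CPM and then at 146 and 135 CPM (-0.34 ± 0.04; FDR = 2.60e-10), and UQCRC2 at 149 and 142 CPM and then at 114 and 117 CPM (-0.33 ± 0.04; FDR = 2.14e-09). These 3 calls held in every refit. CYC1, the cytochrome c1 gene, lies outside the symbol rule but encodes the other nuclear catalytic subunit of the complex. It fell from 114 and 127 CPM to 89.6 and 84.9 CPM (-0.46 ± 0.05; FDR = 1.71e-12).

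Of the small complex III subunits, UQCR10 rose from 39.7 and 43.0 CPM to 48.5 and 52.8 CPM (0.29 ± 0.06; FDR = 4.83e-05). UQCR11, at 80.1 and 81.4 CPM and 86.3 and 90.3 CPM, was called higher by a narrow margin (0.13), and UQCRB, at 74.3 and 70.8 CPM and 57.3 and 66.5 CPM, lower (-0.23). The UQCR11 call was lost with DESeq2 (adjusted p = 0.0923), without control shRNA replicate 1 (FDR = 0.0953) and without PELP1 shRNA replicate 2 (FDR = 0.225), and the UQCRB call without PELP1 shRNA replicate 1 (FDR = 0.124). UQCRQ and UQCRH were not called. UQCRH has a near-identical intronless copy, UQCRHL, which the files list at 61.7 and 56.5 CPM and 54.8 and 62.2 CPM. Reads shared by the pair may be split between them or lost as not uniquely aligned, so both levels are uncertain.

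ATP synthase showed calls of different direction in its parts. In the F1 head, which carries the catalytic sites, the beta subunit gene ATP5B was at 1048.5 and 1044 CPM with the control shRNA and 1118 and 1116 CPM with the PELP1 shRNA (0.09 ± 0.03; edgeR FDR = 0.0125). The alpha subunit gene ATP5A1 was at 364 and 366 CPM and 338 and 351 CPM (-0.08 ± 0.04; FDR = 0.0393). Both are calls on shifts of under 0.1. ATP5A1 was not called in 9 of 11 refits, among them DESeq2 (adjusted p = 0.0737) and the fits without either control library or PELP1 shRNA replicate 1 (FDR = 0.0712, 0.110 and 0.333), and its sign turned with library size alone. ATP5B was not called without control shRNA replicate 2, PELP1 shRNA replicate 1 or PELP1 shRNA replicate 2 (FDR = 0.0504, 0.0754 and 0.0737), nor with the replicate block (FDR = 0.0640).

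The central stalk turns inside the head. Its gamma subunit gene ATP5C1 was at 112 and 108 CPM and 119.8 and 124.8 CPM (0.15 ± 0.05; FDR = 0.00259), and was not called without PELP1 shRNA replicate 2 (FDR = 0.0782). ATP5D, the delta subunit gene, rose from 68.2 and 76.9 CPM to 90.3 and 87.9 CPM (0.30 ± 0.05; FDR = 1.56e-06) and kept its call in every refit. ATP5E, the epsilon subunit gene, had few reads: 55 and 96 under the control shRNA, then 65 and 53 under the PELP1 shRNA, which makes 2.35 and 3.73 CPM and 2.15 and 1.92 CPM. Its fold change of -0.59 ± 0.21 (FDR = 0.0146) was lost with DESeq2 (adjusted p = 0.160), without control shRNA replicate 2 (-0.20; FDR = 0.568) and without PELP1 shRNA replicate 2 (FDR = 0.0926). The copy ATP5EP2 took 913 and 1024 counts and then 1167 and 1134, and was not called (0.02; FDR = 0.844). The level listed for ATP5E is therefore that of the reads placed on it and not on its copy.

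The peripheral stalk holds the head against the turning rotor, and 3 of its 4 genes fell, beside 29.5% of all tested genes. ATP5O, which encodes the oligomycin sensitivity protein at the top of the stalk, fell from 185 and 194 CPM to 150.2 and 149 CPM (-0.35 ± 0.04; FDR = 7.04e-11). ATP5J, for coupling factor 6, fell from 116 and 117 CPM to 94.0 and 98.7 CPM (-0.27 ± 0.05; FDR = 7.46e-07), and ATP5F1, for subunit b, from 201 and 197 CPM to 168 and 169 CPM (-0.24 ± 0.04; FDR = 4.63e-07). ATP5H, for subunit d, was not called (0.05). The 3 lower calls held in every refit. All 4 genes share exonic bases with genes on the opposite strand: ATP5J 750, with GABPA among those genes, ATP5H 613, ATP5O 246 and ATP5F1 90. ATP5O also shares 492 with ENSG00000249209 on its own strand. Whether reads were counted by strand is not given in the sources used here.

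Small membrane subunits of ATP synthase link it into dimers. ATP5I, for subunit e, rose from 59.4 and 57.3 CPM to 77.8 and 81.5 CPM (0.45 ± 0.05; FDR = 5.33e-11), the largest rise of the complex. ATP5J2, for subunit f, was lower, at 83.5 and 85.7 CPM and 78.2 and 68.0 CPM (-0.21), but not without PELP1 shRNA replicate 2 (FDR = 0.139). ATP5L, for subunit g, was not called (0.10). ATP5I shares 571 exonic bases with MYL5 on the opposite strand, so the caution on strand applies to it too.

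**Figure D5:**
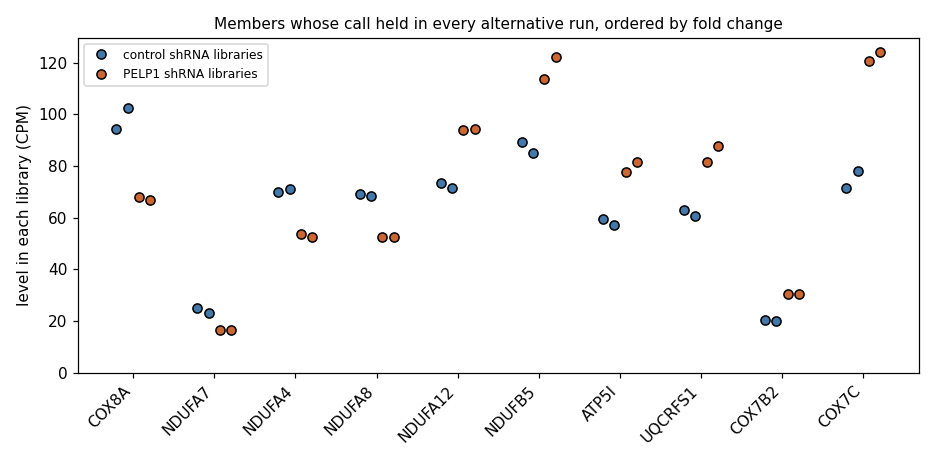
Level in CPM (y axis) of the 10 members that kept their call in every refit and with an assumed biological variation of 10%, in each control shRNA library (blue) and PELP1 shRNA library (orange), ordered by fold change from COX8A to COX7C. In each gene the groups are separate and the libraries of 1 group lie close together. Separate groups were found for 39% (PELP1 shRNA above) and 38.7% (below) of all tested genes.

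The estimated biological coefficient of variation between libraries of 1 group was 2.99%, and shifts of under 0.1 on the log2 scale were called. When a biological variation of 10% was assumed instead, an alternative chosen after seeing the data, 6 of 80 tested members were higher and 5 lower. At that setting 14.6% of all tested genes were higher and 14.5% lower. The called members were COX7C, COX7B2, UQCRFS1, ATP5I, NDUFB5 and NDUFA12 on the higher side and COX8A, NDUFA7, NDUFA4, NDUFA8 and ATP5E on the lower. All but ATP5E also kept their call in every refit. The levels of these 10 genes by library are plotted in order of fold change.

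Promoter sequence was looked at because the subunit genes share binding factors. RefSeq promoter windows on GRCh38.p14, from 250 bases before to 50 after a gene's start, were matched for 68 of the 86 members. The letters GCGCANGCG, a form of the NRF1 site, were found on either strand in 22 of the 68 (32.4%), against 16% of tested genes and 7.52% of all 35116 promoters in the table. CCGGAAGT, an ETS site of the kind GABP binds, was found in 16.2% of members and 9.13% of tested genes. AAGATGGCG, a YY1 site, was in 13.2% and 4.36%, and TGACGTCA, a CREB site, in 7.35% and 3.69%. In all, 38 members held at least 1 of the 4 motifs and 8 held more than 1 kind, and no matches of different kinds shared bases. A match describes letters and is not a bound site.

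Windows of 30 bases around the NRF1 letters are shown for 3 of the steadiest higher members and for NDUFA8, a steady lower one. Each is from RefSeq on GRCh38.p14 and read 5′ to 3′ on the gene's strand, with 1 match or its reverse complement in capitals. ATP5I and NDUFA8 hold further matches, and in NDUFA8 these overlap the letters in capitals.
UQCRFS1, chr19:29213162-29213191, minus strand: cgcctcctcgCGCCTGCGCcgtggttggaa
ATP5I, chr4:674335-674364, minus strand: gccgctgacgGCGCATGCGtgcgcccagct
NDUFA12, chr12:95003794-95003823, minus strand: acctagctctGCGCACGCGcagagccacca
NDUFA8, chr9:122159763-122159792, minus strand: ttgccggatgCGCATGCGCaggcgccgtgt
The same letters thus stand at the start of genes that rose and of 1 that fell. Of the 21 tested members with them, 9 were higher and 5 lower (median log2 fold change 0.04), and of the 44 without them, 8 were higher and 18 lower (median -0.03). The counts with and without the letters describe the members only, and no test was made of the difference. Among all tested genes 28.6% were called higher and 29.5% lower, and calls among all tested genes with the letters were not counted.

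The YY1 letters stood in 9 member promoters, of which 5 were lower with the PELP1 shRNA and none was higher, also with DESeq2 or at an unadjusted p under 0.05; among all tested genes 29.5% were lower and 28.6% higher. Of the 11 tested members with the ETS letters 3 were higher and 5 lower, and of the 5 with the CREB letters 2 were higher and 2 lower. The 5 lower members with the YY1 letters are shown in the same way, with those letters in capitals. They are shown because no other motif searched had calls in 1 direction alone. They were chosen after their values were seen, and the split was not tested.
NDUFA7, chr19:8321342-8321371, minus strand: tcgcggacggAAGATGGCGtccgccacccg
UQCRC1, chr3:48609604-48609633, minus strand: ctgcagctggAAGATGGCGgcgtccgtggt
ATP5J, chr21:25735092-25735121, minus strand: aggcgaagaaAAGATGGCGgaggctgtgcc
SDHB, chr1:17054003-17054032, minus strand: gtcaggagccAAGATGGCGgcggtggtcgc
NDUFS4, chr5:53560650-53560679, plus strand: tgcctgcagcAAGATGGCGgcggtgtcaat
In NDUFA7, UQCRC1, SDHB and NDUFS4 the letters begin 14, 23, 10 and 21 bases after the start of the gene, and in ATP5J, which has more than 1 listed start, 57 or 207 bases before it. The other 4 members with these letters, NDUFA6, NDUFA9, NDUFB8 and NDUFS7, were not called, at 0.0043, -0.09, -0.12 and -0.04. Their letters begin 25, 10, 17 and 17 bases after the start. The letters contain ATG, the start codon, so a match after the start of a gene may be the beginning of its coding sequence. That was not tested. The motif groups overlap: ATP5J also holds NRF1 and ETS letters, SDHB CREB letters, and UQCRC1, NDUFA9 and NDUFS7 NRF1 letters. Without the YY1 letters, 17 tested members were higher and 18 lower of 56. This grouping was noticed after the values were seen, and it includes NDUFS4, whose groups overlap (55.0 and 46.8 CPM and 43.4 and 48.1 CPM) and whose call was lost without control shRNA replicate 1 (FDR = 0.699) and without PELP1 shRNA replicate 1 (FDR = 0.443).

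The members share other features of their genes. Their longest coding sequences had a median of 466.5 bases, against 1452 for all tested genes with an annotated coding sequence. The 86 genes lie on 22 chromosomes, 13 of them on chromosome 19. A protein-coding gene that starts at most 1000 bases upstream on the opposite strand was found for 19 of 80 tested members (23.8%). The same was found for 10.5% of the 13727 tested genes with an annotated coding sequence. Pairs whose starts overlap, such as COX4I1 and COX4NB, were not counted. Coding length and fold change were weakly related across members (Spearman rho = -0.13 over 80 genes that share the same 4 libraries), as were control CPM and fold change (rho = -0.17).

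Processed copies and overlapping genes are common among them. At least 1 annotated pseudogene was found for 48 tested members, of which 14 were higher and 17 lower, and none for 32, of which 7 were higher and 11 lower. Of the 86 members, 31 share exonic bases with a gene on the opposite strand and 26 with a gene on the same strand. The 44 tested members with any such overlap had 8 higher and 17 lower calls and a median log2 fold change of -0.07. The 36 without overlap had 13 higher and 11 lower calls and a median of 0.05. Among all tested genes 28.6% were called higher and 29.5% lower. The part of shared reads in the calls of the members was not tested.

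The known regulators of these genes did not move as 1 group. Of 12 listed, 2 were higher (16.7%) and 3 lower (25%), against 28.6% and 29.5% of all tested genes. PPARGC1A, the coactivator PGC-1alpha, stood at 5.09 and 4.16 CPM in the control libraries and 7.22 and 6.28 CPM in the PELP1 shRNA libraries (0.55 ± 0.14; edgeR FDR = 0.000653). TFAM, which packages and transcribes mitochondrial DNA, rose from 67.1 and 62.8 CPM to 76.4 and 86.2 CPM (0.32 ± 0.05; FDR = 8.33e-07). NRF1 fell from 39.2 and 38.7 CPM to 33.2 and 30.7 CPM (-0.29 ± 0.07; FDR = 0.000184). PPRC1, a coactivator related to PGC-1alpha, and GABPB1, the transactivating partner of GABPA, fell by 0.35 and 0.34. GABPA itself was at 28.0 and 25.7 CPM and 25.1 and 26.0 CPM and ESRRA at 29.3 and 32.8 CPM and 32.4 and 29.4 CPM, and neither was called (-0.07 and -0.0050).

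Proteins that build the complexes were called in both directions. Of 47 assembly factors 13 were higher (27.7%), 7 lower (14.9%) and 27 not called, with a median log2 fold change of -0.00043. Among all tested genes 28.6% were higher and 29.5% lower, and the difference between these shares was not tested. For complex I, TIMMDC1 and ECSIT rose by 0.51 and 0.34, TMEM126B was higher at 0.21, and C20orf7 (now NDUFAF5) and C2orf56 (now NDUFAF7) were lower at -0.43 and -0.24. For complex IV, COA5, FAM36A (now COX20) and C12orf62 (now COX14) rose by 0.63, 0.51 and 0.38. COX16 and COX19, also assembly factors of the oxidase, fell by 0.64 and 0.32, and COX15, which acts in making haem A, was lower at -0.15. SDHAF2, which helps to attach the flavin to SDHA, was higher at 0.30 and SDHAF1 lower at -0.27. LYRM7 and UQCC, for complex III, were called at 0.16 and -0.13, and none of the 3 complex V factors was called, also with DESeq2 or at an unadjusted p under 0.05. TMEM126B, C2orf56, COX15, SDHAF1, SDHAF2, LYRM7 and UQCC lost their calls in at least 1 fit that left out a library, with FDRs of up to 0.128, 0.0751, 0.267, 0.315, 0.165, 0.209 and 0.382.

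Among 8 subunits and carriers that the symbol rule leaves out, C15orf48 was the only one called higher. CYC1, CYCS (cytochrome c) and ATPIF1, the inhibitor of ATP synthase, were lower at -0.46, -0.14 and -0.14, and NDUFAB1, USMG5, C14orf2 and NDUFA4L2 were not called. CYCS was not called without control shRNA replicate 1 (FDR = 0.141), and ATPIF1 in none of the fits that left out 1 library (FDR of up to 0.196).

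The citric acid cycle with pyruvate dehydrogenase, which supplies NADH and succinate to the chain, had 6 higher, 6 lower and 6 uncalled genes of 18, with a median of 0.0039. The shares called higher and lower were both 33.3%, against 28.6% and 29.5% of all tested genes. MDH2, DLST and SUCLG2 fell by 0.41, 0.34 and 0.28, while SUCLA2, IDH2 and PDHX rose by 0.39, 0.38 and 0.32. SUCLA2 and SUCLG2 encode alternative subunits that set whether succinyl-CoA ligase makes ATP or GTP, and they moved in opposite directions (FDR = 8.53e-07 and 0.00200).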

How the data were processed

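RNA from 4 Daoy libraries was sequenced as 50-base single-end reads from a TruSeq total RNA kit, per the labels. Per the submitters' processing notes, bcl2fastq, TopHat2 2.0.8b, HTSeq and the build hg19 were used. For the annotation and the strand setting of the counting, nothing is stated in the sources used here. The authors deposited raw read counts per gene symbol, with 5 rows that name no gene. These rows held 38.8% to 40.5% of each file's total, mostly alignments that were not unique (29.4% to 30.8%), and were left out. Genes with close copies lose shared reads that way.

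Counts were tested with edgeR 4.0.16 in R 4.3.3 (TMM factors of 0.967 to 1.03, filterByExpr, robust quasi-likelihood F test, group as the only term, two-sided), with Benjamini-Hochberg adjustment over 14972 genes at 0.05. The scripts were tested on simulated data. Levels are TMM-scaled CPM. No set test was made. The members and lists were chosen with earlier results of these data known. Named genes were up to 3 called members with the largest change in each direction per complex, the isoform families, the core subunits, PELP1 and 5 regulators with their levels, and up to 3 called genes in each direction of the other lists, with further members given by their fold change; 1 tested member is counted in the totals but not reported individually here. Alternatives were upper-quartile factors, library size alone, DESeq2 1.42.0, limma-voom (limma 3.58.1), no filter on low counts, a filter of 5 CPM in 2 libraries, a replicate block and leaving out each library, and, added after seeing the data, an assumed biological variation of 10% and the NDUFA4 regrouping. Libraries of 1 group differed by more than counting noise (chi-square per degree of freedom of 2.39 and 2.33, over genes whose counts sum to 10 or more) and counted as separate samples. Exon overlaps, pseudogenes, coding lengths and hg19 positions came from GENCODE lifted to that build.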

Additional observations from a re-analysis of the deposited data

How the results depend on the processing

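All-gene calls numbered 4276 higher and 4424 lower, from 3612 to 3726 and from 3804 to 4031 when 1 library was left out, and 2187 and 2176 with an assumed biological variation of 10%. With that variation 6 members were higher and 5 lower: 2 and 3 in complex I, 0 and 0 in II, 1 and 0 in III, 2 and 1 in IV, and 1 and 1 in V. With library size alone 34 members were higher, 15 of them in complex I, 7 in IV and 7 in V, 0 members of complex II were lower, and ATP5A1 turned from -0.08 to 0.0054 (edgeR FDR = 0.908). DESeq2 called 4 members of complex I higher. Leaving out 1 library gave 5 to 6 higher in complex I, 1 to 2 in complex II and 2 to 4 in complex V. With the replicate block, 17 members were higher and 25 lower. The deviations of same-numbered libraries had a correlation of 0.011, and the labels give the numbers no shared source. The causes of these differences were not tested. The low-count filter at 5 CPM and its absence, upper-quartile factors and limma-voom kept all of these counts within 1.5 times. Depth limits ATP5E and the 6 untested members, which had 0 to 20 counts in all.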
